A study of Homo sapiens with 204 samples.

Results

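RPL21 is a protein of the large ribosomal subunit, and the measurements described here are those of A549 cells in which it was knocked down by a small interfering RNA (siRNA). A549 is an established line of human lung adenocarcinoma cells. The RPL21 knockdown is 4 of the 204 samples in the series: 2 lysates, called RPL21_1 and RPL21_2, each measured as total mRNA (RNA-seq) and as ribosome footprints (Ribo-seq). They were chosen by their column names in both count tables and were set against 12 samples from 6 lysates of cells given non-targeting siRNA, called 11_1, 11_2, 20_1, 20_2, 21_1 and 21_2. The last 2 names are those of the count tables: the sample labels call these libraries 21 and 22 without saying which is which, so treating them as 1 set rests on the table names. Cells of every group received 40 nM siRNA for 24 h and then cycloheximide, which halts ribosomes on their mRNAs, and each lysate was divided between the assays. The labels give no other genetic change or drug, and all data come from this 1 line. A further reference was the 60 samples of 15 other ribosomal protein knockdowns with 2 lysates each: RPL15, RPL24 and RPL29 of the large subunit, and 12 proteins of the small subunit.

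When a ribosomal protein is missing, its subunit is often not completed. Other ribosomal proteins, RPL5 and RPL11 above all, can then bind MDM2, the ubiquitin ligase that keeps the transcription factor p53 low. p53 then induces CDKN1A, an inhibitor of cyclin-dependent kinases, and cells with little kinase activity keep E2F and DREAM target genes of the cell cycle silent. The mRNAs of ribosomal proteins and of several translation factors belong to a further class, the TOP mRNAs, which begin with a cytosine and a run of pyrimidines and whose translation is controlled as a group, through mTOR and LARP1. The lists below group the genes by these roles.

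Start sites and promoters of genes that the results turn on are shown here, from RefSeq promoter windows on GRCh38.p14, 5′ to 3′ on the strand of the gene. The TOP run at the annotated start is in capitals for RPL21 (chr13:27251528-27251577, plus strand), RPLP0 (chr12:120201092-120201141, minus strand), RPLP1 (chr15:69452788-69452837, plus strand), RPS6 (chr9:19380217-19380266, minus strand), TPT1 (chr13:45341164-45341213, minus strand) and EEF1A1 (chr6:73521013-73521062, minus strand). They are the TOP mRNAs whose footprints the later results turn on.
RPL21: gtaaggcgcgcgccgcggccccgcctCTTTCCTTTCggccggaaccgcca
RPLP0: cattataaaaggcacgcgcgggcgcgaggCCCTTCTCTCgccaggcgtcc
RPLP1: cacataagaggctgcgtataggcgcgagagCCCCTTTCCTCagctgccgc
RPS6: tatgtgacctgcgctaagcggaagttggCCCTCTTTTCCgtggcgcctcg
TPT1: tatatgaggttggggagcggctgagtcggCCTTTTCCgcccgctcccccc
EEF1A1: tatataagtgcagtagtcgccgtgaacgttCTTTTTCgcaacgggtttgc
A run was counted where a C within 5 bases of the annotated start was followed by at least 4 more C or T on the gene's strand, and 21.1% of the 27305 promoters in the table had one. Promoters were found for 78 of the 100 genes of the ribosomal protein and TOP lists, under 80%, so no share is given for them.

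Promoters of genes that act at the start of S phase often hold an E2F site, and those of mitotic genes a CHR element, which binds the DREAM complex. CDC6 (chr17:40287865-40287908, plus strand), E2F1 (chr20:33686377-33686426, minus strand), PCNA (chr20:5126653-5126702, minus strand) and RFC3 (chr13:33818073-33818122, plus strand) show the E2F motif in capitals, on either strand. PLK1 (chr16:23678839-23678886, plus strand), CDC20 (chr1:43358895-43358942, plus strand), CCNB2 (chr15:59105096-59105143, plus strand) and CDK1 (chr10:60778149-60778196, plus strand) show the CHR motif.
CDC6: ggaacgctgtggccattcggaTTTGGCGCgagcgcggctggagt
E2F1: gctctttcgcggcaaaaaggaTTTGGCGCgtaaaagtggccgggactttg
PCNA: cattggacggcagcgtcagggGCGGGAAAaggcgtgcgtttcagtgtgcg
RFC3: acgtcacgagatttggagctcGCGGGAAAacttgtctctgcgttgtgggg
PLK1: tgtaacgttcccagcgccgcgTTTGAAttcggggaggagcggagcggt
CDC20: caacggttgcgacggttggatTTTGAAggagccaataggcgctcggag
CCNB2: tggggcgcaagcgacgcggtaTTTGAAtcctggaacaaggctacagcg
CDK1: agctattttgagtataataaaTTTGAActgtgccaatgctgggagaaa
The E2F motif, searched as TTTCCCGC or TTTGGCGC on both strands, was in 18 of the 40 promoters found for the DNA replication list, 45%, against 2.31% of all promoters in the table. Its pyrimidine part can also fall within a pyrimidine run. The CHR motif, searched as TTTGAA on both strands, was in 26 of the 37 promoters found for the mitosis list, 70.3%, against 15.4% of all promoters. A match is a stretch of letters and not a measured site.

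The libraries differed in 2 ways that bear on every result. First, libraries came in sets of 2: the chi-square of counts over its degrees of freedom, which is 1 for sampling noise alone, was 6.37 between the RPL21 libraries in RNA-seq and 4.11 in Ribo-seq. Within control sets 11, 20 and 21 it was 4.64, 112 and 3.47 in RNA-seq and 5.51, 8.61 and 9.41 in Ribo-seq, and across control sets it was 61.1 to 516 and 27.7 to 176, so that in RNA-seq set 20 was no more alike than some libraries of different sets. Both RPL21 lysates are thus 1 set, the labels do not say whether they are separate cultures, and p-values may in part measure technical spread. Second, control 20_2 stood apart in mRNA: the SD over 9924 genes of its log2 ratio to the control mean was 0.79, against 0.614 and 0.592 in RPL21 and 0.178 to 0.474 in the other 5 controls. In footprints, over 8890 genes, it was 0.649 and 0.644 in RPL21 and 0.183 to 0.414 in all 6 controls. Controls 21_1 and 21_2 are in another run of columns than the RPL21 libraries and the other controls. Assigned reads, in megareads (M), were 47.35 M and 41.73 M in RPL21 mRNA and 30.71 M to 42.49 M in control mRNA, and 16.19 M and 35.62 M in RPL21 footprints and 15.1 M to 41.88 M in control footprints. Markers of A549 cells and lung epithelium summed to 13700 to 13900 CPM (read counts scaled to the same library size) in RPL21 mRNA and 8840 to 16800 in controls. Of these 16 markers 11 averaged at least 1 CPM in mRNA. EPCAM, NAPSA, SFTPB, SFTPC and NKX2-1 averaged less than that in both groups.

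RPL21 mRNA was almost removed, which checks the labels. It had 156 and 236 reads, or 3.50 and 5.91 CPM, in RPL21_1 and RPL21_2, against 206, 220, 201, 239, 307 and 285 CPM in controls 11_1, 11_2, 20_1, 20_2, 21_1 and 21_2. The RPL21 lysates thus kept 1.44% and 2.43% of the control mean. The log2 fold change was −5.69 (SE 0.29, adjusted p 1.16e-13, edgeR's quasi-likelihood test with Benjamini-Hochberg adjustment over all genes, as for every adjusted p below). In each of the 15 other knockdowns RPL21 mRNA lay between 108 and 335 CPM. Footprints on RPL21 were few in all libraries, 0 and 5 reads in the knockdown against 14 to 96 in controls, so that RPL21_1 lay under the floor of 3 reads, 0.185 CPM. Their log2 fold change was −3.92 (SE 0.83, adjusted p 0.000381) and the ratio of footprints to mRNA could not be compared for this gene. Of its 84 pseudogene copies in the table, 37 had a read, the highest at a mean of 0.362 CPM.

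Over all genes, the knockdown and the controls differed widely in both assays. In mRNA 2431 of 15142 genes tested were higher in RPL21 knockdown than in control at adjusted p under 0.05 (16.1%) and 2663 were lower (17.6%), with a median log2 fold change over all genes of −0.06. In footprints 2391 of 12404 genes were higher (19.3%) and 2547 lower (20.5%), with a median of −0.02. Footprints per mRNA, taken as the assay-by-group interaction within lysates, called 107 of 12197 genes higher (0.877%) and 145 lower (1.19%), with a median of −0.01. Changes of over 1 on the log2 scale were called for 494 genes higher and 1203 lower in mRNA, for 585 higher and 941 lower in footprints, and for 54 higher and 36 lower in footprints per mRNA. The 2 RPL21 libraries lay beyond all 6 controls for 2092 of the 2431 and 1984 of the 2663 mRNA calls, and for 95 of the 107 and 140 of the 145 calls of footprints per mRNA. Over all genes, called or not, they lay above all controls for 2383 and below all for 2227 of 15142 in mRNA, and for 528 and 744 of 12197 in footprints per mRNA, most of which were not called. The shares called over all genes are the background for the list counts that follow. When the 2 libraries of each set were summed, so that RPL21 counted as 1 sample, the calls in mRNA came to 1, in footprints to 321 and in footprints per mRNA to 0. That fit uses the spread between sets, and its count for footprints per mRNA at an unadjusted p under 0.05 was 181.

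**Figure D1:**
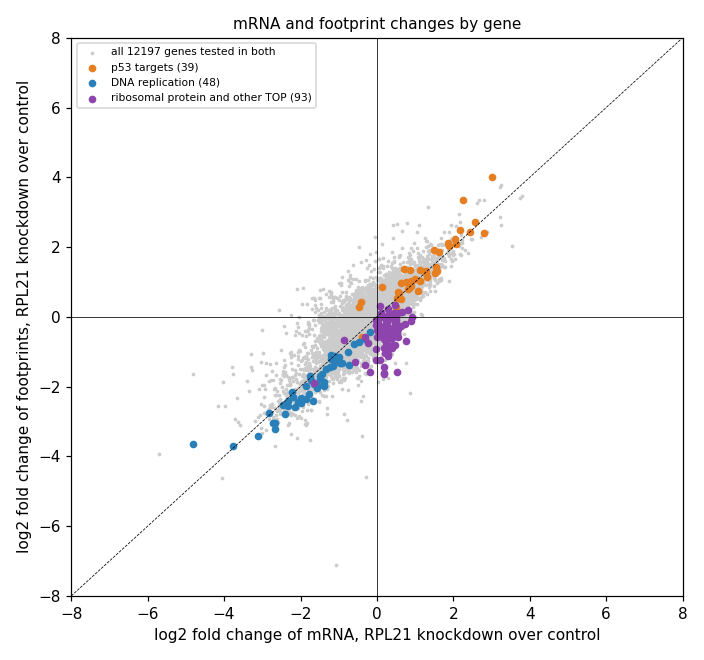
Log2 fold change of RPL21 knockdown over control in mRNA (x axis) and in footprints (y axis) for the 12197 genes tested in both; the dashed line marks equal change. p53 targets (39 genes, orange) lie to the upper right, DNA replication genes (48, blue) to the lower left, and ribosomal protein and other TOP mRNAs (93, purple) lie mostly below the line.

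p53 target genes rose together in mRNA and in footprints. Of 40 tested, 33 were called higher and 0 lower in mRNA, with a median log2 fold change of 1.11, and 35 of 39 were higher and 0 lower in footprints, with a median of 1.26. CDKN1A mRNA had 831 and 792 CPM in the knockdown, against 192, 184, 173, 247, 136 and 139 CPM in the 6 controls, with no overlap. Its log2 fold change was 2.18 (SE 0.14, adjusted p 6.77e-12) in mRNA and 2.48 (SE 0.17, adjusted p 1.97e-12) in footprints, and the ratio of the assays moved by 0.32 (SE 0.20, adjusted p 0.519). MDM2 is both a target of p53 and its inhibitor. Its mRNA had 769 and 818 CPM in the knockdown and 159, 164, 112, 53.7, 254 and 255 CPM in controls, and its footprints 872 and 901 CPM, against 77.4, 67.9, 60.4, 63.6, 125 and 132 CPM. The footprint change of 3.34 (SE 0.18, adjusted p 9.34e-15) exceeded the mRNA change of 2.26 (SE 0.29, adjusted p 1.15e-06), and the difference was called in footprints per mRNA, at 0.99 (SE 0.23, adjusted p 0.0192). That last call was lost when either RPL21 library was left out.

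BTG2, an antiproliferative cofactor of mRNA deadenylation, had the second largest mRNA rise among the genes named by rule. It had 127 and 130 CPM in knockdown mRNA and 12.9 to 19.9 CPM in control mRNA, and 97.3 and 89.8 CPM in knockdown footprints and 4.45 to 7.12 CPM in control footprints. The log2 fold changes were 3.01 (SE 0.11, adjusted p 3.29e-16) and 4.01 (SE 0.15, adjusted p 2.5e-17), and footprints per mRNA were higher by 1.00 (adjusted p 0.0086), the other of the 2 called members of 39. Without control 20_2 the called members were 5, and without either RPL21 library 0 by edgeR. XPC, which recognises damaged DNA in nucleotide excision repair, had 99.8 and 99.8 CPM in knockdown mRNA and 26.4 to 30.9 CPM in controls, and SPATA18, a mitochondrial quality control protein, had 23.7 and 24.8 CPM against 2.64 to 5.4 CPM. FDXR and SESN1 were higher by 2.42 and 2.08 in mRNA and by 2.42 and 2.09 in footprints. The proapoptotic BBC3 was higher by 2.03 in mRNA and 2.22 in footprints. Members not called in mRNA included CCNG1, at −0.46 (adjusted p 0.56), and RRM2B, at 0.13 (adjusted p 0.85), of which RRM2B was called in footprints at 0.87. The list median by library was 1.13 and 1.05 in knockdown mRNA and −0.08 to 0.11 in control mRNA. With the sets summed, 0 of the 40 remained called in mRNA and 12 of the 39 in footprints, among them CDKN1A, MDM2 and BTG2.

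**Figure D2:**
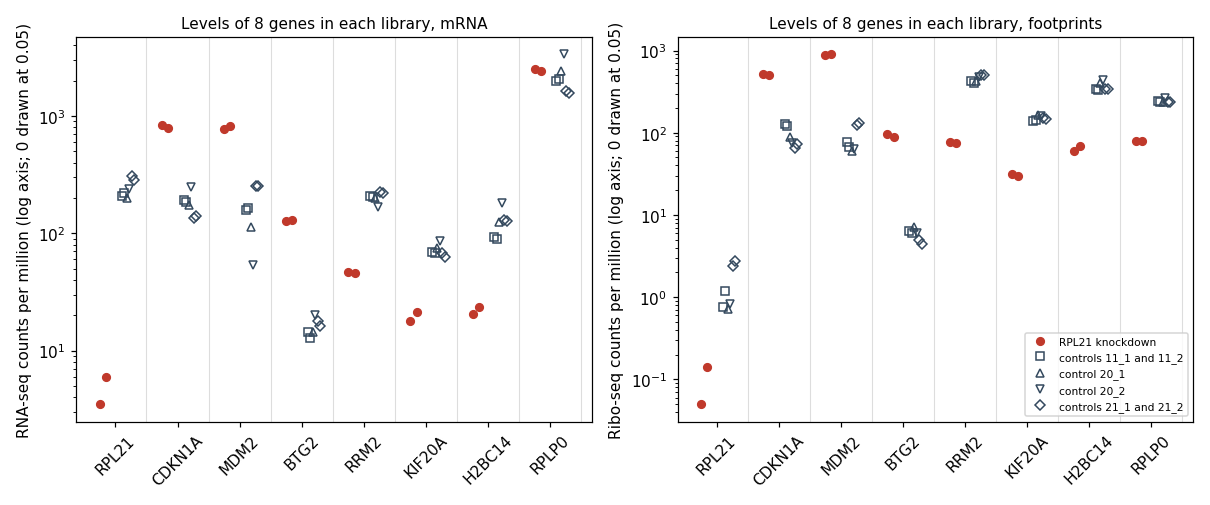
CPM (log axis, a value of 0 drawn at 0.05) in each library for 8 genes, mRNA in the left panel and footprints in the right. Filled red points are the 2 RPL21 libraries and open symbols the 6 controls. CDKN1A, MDM2 and BTG2 lie above all controls in both assays, RRM2, KIF20A and H2BC14 below, and RPLP0 lies within the controls in mRNA and below them in footprints.

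Genes of apoptosis were called in both directions. Of 24 tested, 8 were called higher and 3 lower in mRNA, and of 23 in footprints 10 were higher and 3 lower. The shares over all genes were 16.1% higher and 17.6% lower in mRNA, and 19.3% and 20.5% in footprints. In both assays the apoptosis genes called lower were thus under the background. TNFRSF10B, a death receptor that is also on the p53 list, had 819 and 802 CPM in knockdown mRNA and 261 to 426 CPM in control mRNA, a log2 fold change of 1.30 (SE 0.13, adjusted p 1.59e-08). The antiapoptotic BCL2L1 was also higher, by 1.00. BCL2L11 fell by 1.36 and BID by 0.63 in mRNA, and both act in favour of cell death.

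DNA replication genes fell almost without exception. In mRNA 48 of 49 were called lower and 0 higher, with a median log2 fold change of −1.65, and in footprints 48 of 48 were lower, with a median of −1.95. TYMS, thymidylate synthase, was the member not called in mRNA, at −0.19 (adjusted p 0.2). RRM2, the regulated subunit of ribonucleotide reductase, had 46.8 and 45.4 CPM in knockdown mRNA and 167 to 227 CPM in controls. Its footprints had 76.4 and 75.1 CPM in the knockdown and 398 to 503 CPM in controls, a change of −2.59 (SE 0.10, adjusted p 2.94e-17). CDC6, a loader of the replicative helicase, had 17.8 and 18 CPM in knockdown mRNA and 81.2 to 100 CPM in controls, a change of −2.33 (SE 0.13, adjusted p 4.44e-13). GINS1, a subunit of that helicase, had 20.6 and 20.8 CPM against 87.7 to 132 CPM, a change of −2.40 (SE 0.13, adjusted p 5.93e-13). None of these ranges overlapped. In bulk lysates, fewer cells in S phase and less of each mRNA per cell cannot be told apart.

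Among the largest falls were the transcription factors of this programme. E2F1 footprints had 0.927 and 1.15 CPM in the knockdown and 6.59 to 15 CPM in controls, a log2 fold change of −3.23 (SE 0.42, adjusted p 4.19e-07), and E2F2 changed by −3.77 in mRNA and −3.69 in footprints. ASF1B, a histone chaperone, had 4.33 and 5.19 CPM in knockdown footprints and 48.0 to 55.6 CPM in controls, a change of −3.41 (SE 0.16, adjusted p 5.3e-16). ZNF367, a zinc finger gene, had 1.26 and 1.35 CPM in knockdown mRNA and 22.9, 20.1, 20.5, 9.48, 29 and 28.6 CPM in the 6 controls, a change of −4.06 (SE 0.33, adjusted p 5.81e-10). FAM111B, a protease gene, had 0.382 and 0.525 CPM in knockdown mRNA and 2 to 23.9 CPM in control mRNA. E2F1, E2F2 and ZNF367 each held an E2F motif in their promoter window.

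Genes of mitosis fell as well, and their median in mRNA, −1.86, was the same in footprints. In mRNA 42 of 43 were called lower and 0 higher, the exception being ECT2 at −1.15 (adjusted p 0.052), and in footprints 43 of 43 were lower. KIF20A, a kinesin of cytokinesis, had 17.9 and 21.5 CPM in knockdown mRNA and 62.6 to 86.1 CPM in controls, and 31.4 and 29.8 CPM in knockdown footprints and 140 to 163 CPM in controls. The footprint change was −2.30 (SE 0.09, adjusted p 4.43e-17). AURKA, a spindle kinase, had 51.9 and 50.4 CPM in knockdown mRNA and 141 to 175 CPM in controls, and PLK1, a further mitotic kinase, had 80.4 and 76.2 CPM in knockdown footprints and 322 to 371 CPM in controls. CCNA2, cyclin A2, fell by 2.63 in footprints, to 25.5 and 26.9 CPM in the knockdown against 154 to 176 CPM in controls. In footprints per mRNA 3 replication genes (CDC45, RRM1 and RFC5) and 2 mitotic genes (CENPA and CCNB2) were called lower and 0 higher. Without control 20_2 these were 10 replication and 6 mitotic genes lower and 3 mitotic genes higher, and without either RPL21 library 0 replication genes were called lower by edgeR.

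Replication-dependent histone genes, which are transcribed in S phase, fell furthest of the lists, with median log2 fold changes of −2.32 in mRNA and −2.23 in footprints. In mRNA 46 of 46 were called lower and in footprints 46 of 48, H2BC9 and H3C8 being the members not called. H2BC14 had 20.4 and 23.3 CPM in knockdown mRNA and 89.9 to 182 CPM in controls, a change of −2.51 (SE 0.19, adjusted p 2.61e-10). H3C10 footprints had 158 and 159 CPM in the knockdown and 965 to 1190 CPM in controls, a change of −2.78 (SE 0.11, adjusted p 2.94e-17). Histone genes share long stretches of sequence, so reads may be divided among copies, and single members are uncertain. With the sets summed, 28 of 48 replication genes, 33 of 43 mitotic genes and 31 of 48 histone genes remained called lower in footprints, and 0 of each list in mRNA.

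**Figure D3:**
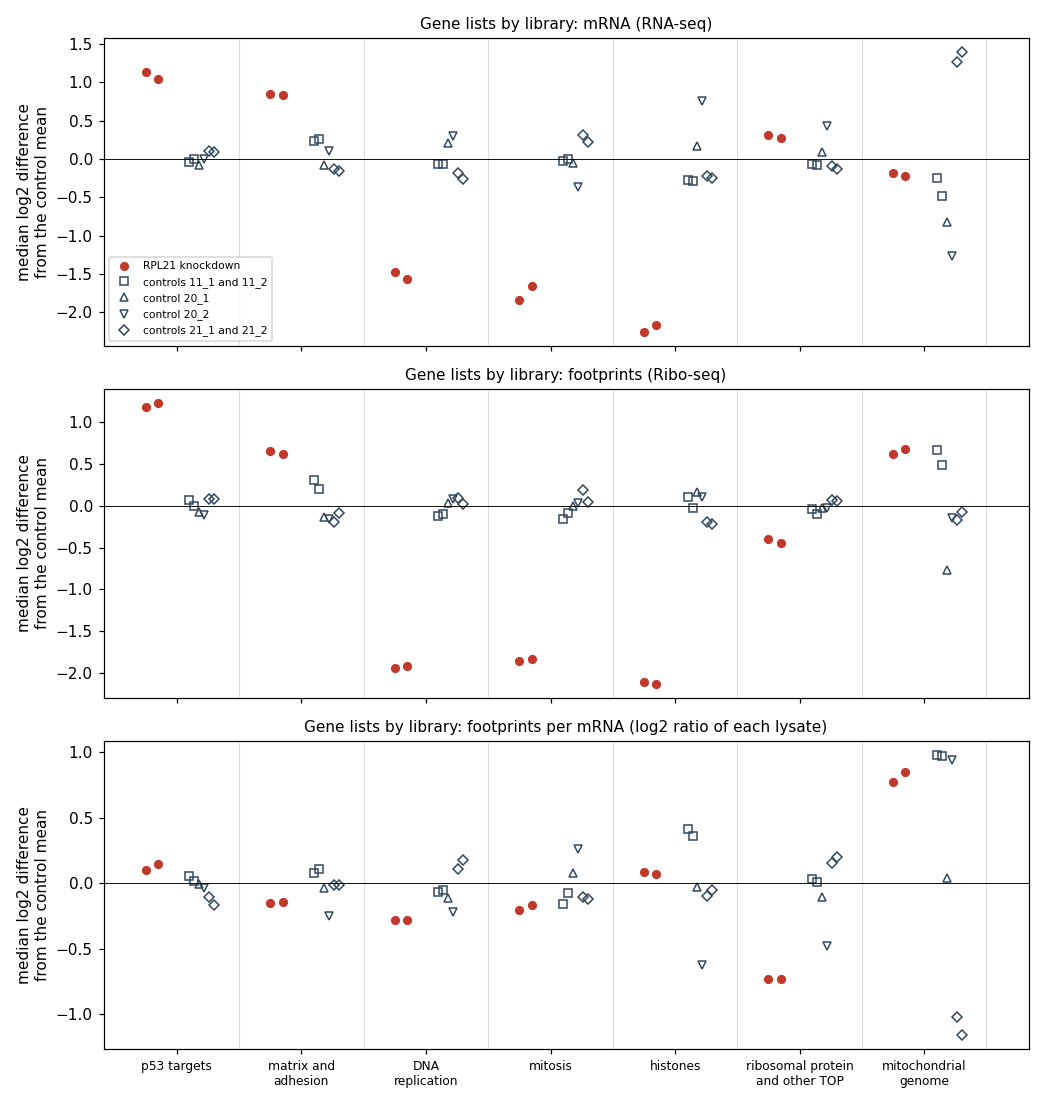
Median log2 difference from the control mean over the members of 7 gene lists, in each library, for mRNA, footprints and footprints per mRNA; red points are RPL21_1 and RPL21_2 and open symbols the controls. In mRNA the RPL21 libraries lie at 1.13 and 1.05 for p53 targets and at −2.26 and −2.17 for histone genes, and in footprints per mRNA the ribosomal protein and TOP list lies at −0.73 in both.

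Most mRNAs of ribosomal proteins other than RPL21 were slightly higher or not called, RPL10A and RPL19 being called lower, while many of their footprints were lower. Of the 47 large-subunit genes tested in mRNA, RPL21 included, 15 were called higher and 3 lower, with a median log2 fold change of 0.24, and in footprints 0 of 45 were higher and 27 lower, with a median of −0.50. Of the 33 small-subunit genes 10 were higher and 0 lower in mRNA, with a median of 0.24, and 0 of 31 were higher and 21 lower in footprints, with a median of −0.56. Other TOP mRNAs, mostly of translation factors, were higher for 11 and lower for 1 of 20 in mRNA, and higher for 1 and lower for 6 of 18 in footprints. Without control 20_2 the large-subunit and small-subunit genes called higher in mRNA were 27 and 21, and without RPL21_1 they were 9 and 4. Without RPL21_1 or RPL21_2 the large-subunit genes called lower in footprints were 14 or 15, and the other TOP mRNAs 2 in each case. Without RPL21_2 the large-subunit mRNA calls higher were 9, and the small-subunit footprint calls lower 13. In mRNA the list medians of the libraries overlapped: without RPL21 the median over these genes was 0.32 and 0.27 in the knockdown and −0.14 to 0.43 in controls, the highest being control 20_2. In footprints they did not overlap, at −0.40 and −0.45 in the knockdown and −0.09 to 0.07 in controls.

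Footprints per mRNA were lower for many genes of this class. The test called 0 higher and 21 lower of 45 large-subunit genes, 15 lower of 31 small-subunit genes and 8 lower of 18 other TOP mRNAs, with medians of −0.72, −0.82 and −0.66, beside a median of −0.01 over all genes. Without RPL21 the 3 lists held 44 of the 145 genes called lower, and 0 of the 107 called higher. The median log2 ratio by lysate was −0.73 in both RPL21 lysates, and lay between −0.48, in control 20_2, and 0.20 in the control lysates. Without control 20_2 the calls were 35, 25 and 12, and without RPL21_1 or RPL21_2 they were 7 or 5, 4 or 4, and 5 or 5. With the sets summed, and in the fit of the 8 libraries alone, 0 of each list were called.

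RPLP0 and RPLP1, proteins of the ribosomal stalk that recruits elongation factors, had the lowest values of the large-subunit genes. RPLP0 mRNA had 2530 and 2430 CPM in the knockdown, within the 1570 to 3360 CPM of controls, while its footprints had 79.6 and 79.9 CPM in the knockdown and 237 to 262 CPM in controls. Footprints per mRNA of RPLP0 changed by −1.85 (SE 0.17, adjusted p 1.94e-07). RPLP1 mRNA had 1570 and 1470 CPM, within the 981 to 2100 CPM of controls, and its footprints 65.0 and 70.3 CPM, against 183 to 227 CPM, with a change in their ratio of −1.86 (SE 0.19, adjusted p 1.03e-06). RPS6, a small-subunit protein phosphorylated downstream of mTOR, had 2260 and 2160 CPM in knockdown mRNA, above the 1460 to 1710 CPM of controls, and 834 and 813 CPM in knockdown footprints, below the 1170 to 1820 CPM of controls. Its ratio changed by −1.24 (SE 0.13, adjusted p 1.15e-06). The starts of these 3 genes are among the sequences shown above, each with a pyrimidine run.

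Among the translation factors, EEF1B2, the exchange factor of elongation factor 1, changed by −1.36 in footprints per mRNA (SE 0.15, adjusted p 1.55e-06), and the search found no pyrimidine run at its annotated start. EEF2, the translocase of elongation, had 3540 and 3310 CPM in knockdown mRNA and 1290 to 2790 CPM in controls, with footprints of 2100 and 2050 CPM inside the 1750 to 2600 CPM of controls, and a change in the ratio of −1.06 (SE 0.15, adjusted p 7.76e-05). TPT1, a growth-related TOP mRNA, had 1330 and 1330 CPM in knockdown mRNA, inside the 1150 to 1390 CPM of controls, and 216 and 221 CPM in footprints, against 374 to 788 CPM. Its ratio changed by −1.24 (adjusted p 0.0033). EEF1A1, the carrier of aminoacyl-tRNA, had a change of −1.45 in the ratio that was not called (adjusted p 0.071), with 217 and 170 CPM in knockdown footprints and 241 to 408 CPM in controls. Genes of this class have many processed copies in the genome, and how reads matching several places were counted is not given in the sources used here.

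**Figure D4:**
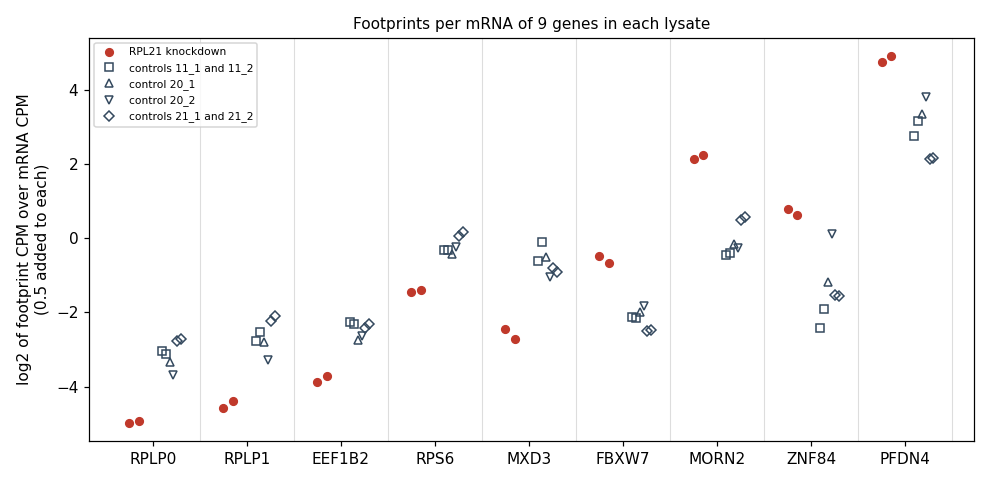
Log2 of footprint CPM over mRNA CPM in each lysate for 9 genes; red points are the 2 RPL21 lysates and open symbols the 6 control lysates. RPLP0, RPLP1, EEF1B2, RPS6 and MXD3 lie below all controls, and FBXW7, MORN2, ZNF84 and PFDN4 above them.

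Not every ribosomal protein kept to the pattern of its list. RPL19 fell in mRNA too, with 383 and 402 CPM in the knockdown and 987 to 1790 CPM in controls (log2 fold change −1.65, SE 0.17, adjusted p 3.05e-08), and with 209 and 214 CPM in footprints against 664 to 896 CPM. RPL5 and RPL11, which can bind MDM2, did keep to the pattern of their list. They were called higher in mRNA, at 0.49 and 0.52, and lower in footprints per mRNA, at −0.57 (adjusted p 0.033) and −1.0. Of the paralogs of ribosomal proteins, RPS27L, a p53 target, had 306 and 294 CPM in knockdown mRNA and 65.0 to 163 CPM in controls, and RPL26L1 had 35.1 and 33.6 CPM against 15.4 to 19.6 CPM. RPL22L1 was lower, with 49.0 and 48.1 CPM in knockdown footprints and 244 to 490 CPM in controls (−2.83, SE 0.22, adjusted p 3.69e-11), and RPL39L fell by 0.97 in mRNA.

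Assembly factors of the ribosome were called in both directions. The shares over all genes were 16.1% higher and 17.6% lower in mRNA and 19.3% and 20.5% in footprints. In mRNA the genes of 60S and of 40S assembly called lower were well under that share, and most of their calls were higher. Of 51 genes of 60S assembly 10 were called higher and 2 lower in mRNA, and 14 higher and 10 lower in footprints, of 47 genes of 40S assembly 11 were higher and 1 lower in mRNA, and of 25 genes of RNA polymerase I and rRNA 4 were higher and 4 lower in mRNA. EBNA1BP2, a 60S assembly factor, had 39.3 and 40.0 CPM in knockdown mRNA and 119 to 136 CPM in controls, a log2 fold change of −1.64 (SE 0.09, adjusted p 3.79e-13). NOLC1, a nucleolar chaperone of small RNPs, went the other way, with 203 and 191 CPM in knockdown mRNA and 64.1 to 78.7 CPM in controls (1.44, SE 0.08, adjusted p 2.89e-13), and a footprint change of 1.87 (SE 0.09). No gene of 60S assembly was called in footprints per mRNA, in edgeR's test.

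Genes of the extracellular matrix and of adhesion rose. Of 31 tested, 24 were called higher and 0 lower in mRNA, with a median log2 fold change of 0.80, and 20 were higher and 0 lower in footprints, with a median of 0.61. With the sets summed, 0 remained called in mRNA and 3 in footprints. CCN1, a matricellular protein, had 191 and 174 CPM in the knockdown, against 61.3 to 79.9 CPM in controls. Of 23 actin cytoskeleton genes 12 were higher and 1 lower in mRNA, and 14 were higher and 2 lower in footprints. ACTA2, smooth muscle actin, had the largest mRNA rise named by rule, with 67.4 and 61.7 CPM in the knockdown and 6.02 to 8.82 CPM in controls (3.21, SE 0.11, adjusted p 3.47e-17), and MICAL2, an actin oxidase, had 528 and 480 CPM in the knockdown and a change of 2.49 (SE 0.07). Markers of fibroblasts summed to 86.5 to 91.5 CPM in the knockdown and 25.1 to 42.4 CPM in controls. Of these 11 markers 3 averaged at least 1 CPM, and the rise of the sum was that of ACTA2. Mean mRNA in knockdown and controls was 64.6 and 6.96 CPM for ACTA2, 19.6 and 19.4 CPM for COL1A1, and 3.8 and 6.87 CPM for THY1. COL1A2, DCN, FAP and POSTN were at 0 in all 8 libraries.

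Stress pathways gave small or divided counts, to be read beside the shares over all genes. These were 16.1% higher and 17.6% lower in mRNA, and 19.3% and 20.5% in footprints. Of 32 integrated stress response genes 7 were called higher and 8 lower in mRNA, and 7 higher and 10 lower in footprints. Those lower in mRNA were 3 without RPL21_1, 2 without RPL21_2, 4 without control 21_1 and 5 without control 21_2, those higher in mRNA 3 without RPL21_1, and those higher in footprints 4 without either RPL21 library. SESN2, which inhibits mTORC1 and is a p53 target too, had 63.9 and 54.7 CPM in knockdown mRNA and 16.6 to 26.3 CPM in controls, while the serine synthesis gene PSAT1 had 147 and 135 CPM in knockdown footprints and 239 to 338 CPM in controls (−1.01, SE 0.11, adjusted p 2.07e-08). ATF4, the transcription factor of the response, rose by 0.49 in mRNA and fell by 0.57 in footprints, and its footprints per mRNA fell by 1.08 (adjusted p 0.0043), as did those of DDIT3, by 0.88. Of 21 heat shock chaperones 1 was higher and 8 lower in mRNA, and 1 higher and 12 lower in footprints, and without RPL21_1 or RPL21_2 the lower mRNA calls were 4 or 5. The genes lower in footprints included CHORDC1, a cochaperone of HSP90, with 22.7 and 21.6 CPM in knockdown footprints and 69.8 to 85.1 CPM in controls. HSPA1A and HSPA1B are near-identical copies whose reads cannot be kept apart. Of 25 genes of sterol synthesis 1 was higher and 13 lower in mRNA, with a median log2 fold change of −0.46, and 16 were lower in footprints. EBP, a sterol isomerase, had 54.4 and 59.4 CPM in knockdown footprints and 129 to 207 CPM in controls (−1.56, SE 0.14, adjusted p 2.96e-10). Without RPL21_1 or RPL21_2 the sterol genes called lower in mRNA were 6 in each case.

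Outside the 3 lists of ribosomal protein and other TOP genes, the largest changes in footprints per mRNA concerned single genes. MXD3, a repressor of the MYC network, fell by 2.18 on the log2 scale (SE 0.27, adjusted p 1.62e-05), with log2 ratios of −2.46 and −2.72 in the knockdown and −1.05 to −0.10 in controls. FBXW7, a subunit of a ubiquitin ligase for cyclin E and MYC, had 23 and 26 CPM in knockdown mRNA and 10.2 to 20.1 CPM in controls, and 16.3 and 16.0 CPM in knockdown footprints and 2.2 to 3.52 CPM in controls. Its ratio rose by 1.77 (SE 0.26, adjusted p 0.000133). MORN2 rose by 2.35 (SE 0.36, adjusted p 0.000316), ZNF84 by 2.27 (SE 0.37, adjusted p 0.000578) and PFDN4, a prefoldin subunit, by 2.08 (SE 0.40, adjusted p 0.00344). For ZNF84 control 20_2 had a log2 ratio of 0.10 and the other controls −2.41 to −1.19, against 0.77 and 0.62 in the knockdown. SLC25A6, an exchanger of ATP and ADP in mitochondria whose start has a pyrimidine run, fell by 1.32 (SE 0.20, adjusted p 0.000316). Of 81 promoters found for genes called lower outside these lists, 34 had such a run, 42%, against 21.1% of all promoters.

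Set against the mean of the 15 other ribosomal protein knockdowns, the RPL21 knockdown differed in several of the gene groups above. The difference itself uses no control library. In mRNA 1792 of 15142 genes were higher in RPL21 than in the others (11.8%) and 1486 lower (9.81%). In footprints 1708 of 12404 were higher (13.8%) and 1406 lower (11.3%), and in footprints per mRNA 56 of 12197 were higher (0.459%) and 119 lower (0.976%). With the sets summed, 1, 0 and 0 genes were called in the 3 measures, and 915 and 135 genes had an unadjusted p under 0.05 in footprints and in footprints per mRNA. p53 targets were higher for 27 of 40 and lower for 0 in mRNA, with a median log2 difference of 0.55. DNA replication genes were lower for 45 of 49 in mRNA, mitotic genes for 39 of 43 and histone genes for 46 of 46. Matrix and adhesion genes were higher for 20 of 31 and lower for 0.

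BTG2, MDM2 and CDKN1A were higher in RPL21 than in the mean of the others by 1.77, 1.96 and 1.23 in footprints. ANGPTL4, a secreted inhibitor of lipoprotein lipase, had the largest positive difference in mRNA, 2.06 (SE 0.11, adjusted p 5.73e-13), with 79.1 and 69.5 CPM in RPL21 libraries and 9.10 to 61.2 CPM in the 30 others. UBXN4, a protein of the endoplasmic reticulum that takes part in protein disposal, was lower in footprints by 2.39 (SE 0.16, adjusted p 7e-12), with 26.2 and 26.6 CPM in RPL21 libraries and 84.0 to 175 CPM in the others. In the controls its footprints lay at 92.6 to 140 CPM, and its mRNA had 14.3 and 16.7 CPM in the knockdown and 24.4 to 96.4 CPM in controls. ZNF367 was lower by 3.01 in mRNA and 3.61 in footprints.

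Ribosomal protein mRNAs were higher than in the other knockdowns for 26 of 47 large-subunit and 23 of 33 small-subunit genes, and their footprints were lower for 27 of 45 and 17 of 31. The targets of the 15 other knockdowns are themselves members of these lists and were not left out of the counts. An siRNA that lowers its own target also lowers the mean of the others for that gene. For these genes a higher mRNA value in RPL21 can thus be built in. In footprints per mRNA, of large-subunit genes 33 of 45 were lower in RPL21 and 0 higher, of small-subunit genes 24 of 31 and of other TOP mRNAs 11 of 18, with medians of −0.88, −1.03 and −0.85. RPLP0 differed by −1.67 (SE 0.15, adjusted p 4.5e-08), EEF1A1 by −1.95 (SE 0.39, adjusted p 0.0048), and RPS29, of the small subunit, by −1.75 (SE 0.40, adjusted p 0.0159). RNF10, a ubiquitin ligase for ribosomal proteins of the small subunit, was higher in footprints per mRNA by 1.52 (SE 0.15, adjusted p 1.38e-07). In a separate comparison, with the non-targeting controls, its footprints alone had 62.1 and 70.0 CPM in RPL21 and 27.3 to 45.8 CPM in controls. When the comparison was limited to RPL15, RPL24 and RPL29, the other large-subunit proteins, 0 genes were called in footprints per mRNA, and 543 had an unadjusted p under 0.05.

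The place of RPL21 among the targets can be given for each list as a median log2 difference from the control mean, averaged over the 2 lysates of a target. All these values share the 6 control lysates. For footprints per mRNA of ribosomal protein and TOP genes, RPL21 was lowest at −0.73, followed by RPL15 at −0.69, RPL24 at −0.37 and RPL29 at −0.06, and the small-subunit targets ranged from 0.002 for RPS15 to 0.55 for RPS12. RPL21 and RPL15 did not differ beyond the spread of their lysates. For p53 targets in mRNA, RPL21 at 1.09 lay below targets such as RPL15 at 1.44, RPS16 at 1.12 and RPS3 at 1.10, and above RPL24 at 0.83 and RPL29 at 0.11. For replication genes in mRNA RPL15 was lowest at −1.87, then RPL21 at −1.52, and for histone genes the order was the same, at −2.84 and −2.22. For matrix genes in mRNA RPL21 was highest at 0.84, with RPL15 at 0.74 and RPS12 at 0.60. In footprints of these genes RPL15 was highest at 0.76, with RPL21 at 0.643 and RPS3 at 0.636.

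**Figure D5:**
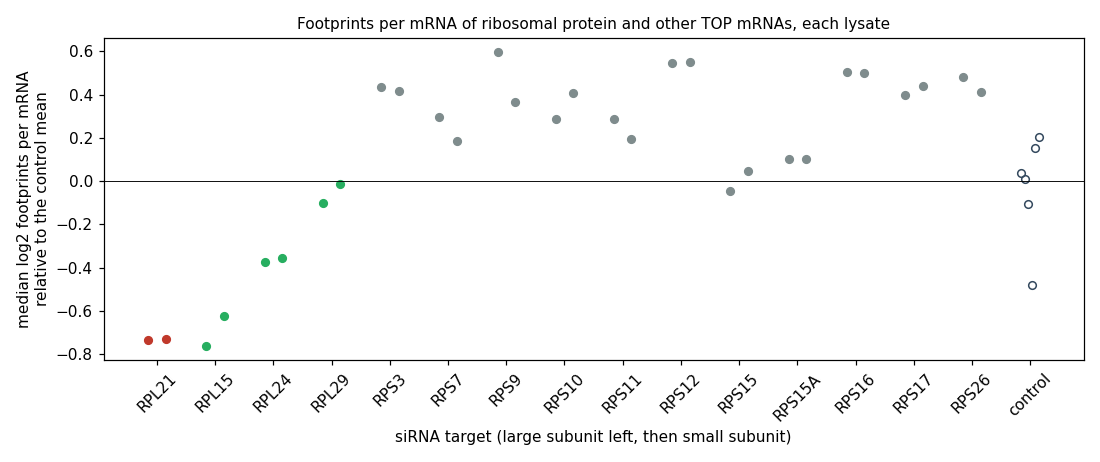
Median log2 footprints per mRNA of ribosomal protein and other TOP genes in each lysate of 15 targets and, at the right, the 6 control lysates; red marks RPL21, green the other large-subunit targets, grey the small-subunit targets and open symbols control. RPL21 and RPL15 lie lowest, at target means of −0.73 and −0.69, and RPS12 highest at 0.55.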

How the data were processed

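RNA-seq and Ribo-seq were made from the same lysates of A549 cells, with footprints of 28 to 30 bases selected on a gel, per the labels' protocols. The deposited tables hold raw counts per Ensembl gene from the authors, 41379 genes in RNA-seq and 19217 coding genes in Ribo-seq. The submitters' processing notes name STAR 2.6.1, cutadapt 1.8.1, bcl2fastq 2.20.0.422 and the build GRCh38. How reads were counted, with which strand setting and annotation, is not given in the sources used here. Members, gene lists, tests and alternatives were chosen with earlier results of these data known.

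The test was edgeR's quasi-likelihood F test (4.0.16, in R 4.3.3, with TMM scaling) over the 38 libraries per assay of the 16 replicated targets and the controls, with 1 mean per group and Benjamini-Hochberg adjustment over all genes with at least 1 CPM in 2 of the 8 RPL21 and control libraries. Footprints per mRNA was the interaction of assay and group, with lysate as block. That the lysates pair the assays comes from the protocol. Deviations of the assays correlated over 0.1 in 7 of 8 lysates. This is a weak check: the 2 RPL21 lysates give the same value, 0.256, by construction, and control deviations hold differences between sets. SE is the log2 fold change over the square root of F. CPM uses TMM library sizes, and log values add 0.5 CPM. Counts give precision by depth, and the floor of 3 counts covers counting error only. Named genes are RPL21, CDKN1A and MDM2, the 8 largest called changes each way (mean of 5 CPM, both RPL21 libraries beyond all controls), the 3 smallest p of each list with 3 calls, and the 6 largest each way against the other knockdowns. Some genes taken by this rule, and 1 of the 16 targets by name, are not reported here. Alternatives used DESeq2 1.42.0, limma 3.58.1, RLE scaling, other filters, other controls, summed sets and left-out libraries. The fits were tested on simulated data, drawn with the same dispersion for all genes and without differences between sets. That test therefore cannot show how the fits behave under the spread between sets seen here.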

Additional observations from a re-analysis of the deposited data

Results flagged for a closer look

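In 4 of 96 groups of control libraries 1 library stood far from the others, and in all 4 it was control 20_2. Chance flags about 1 in 20 groups. The gap to the nearest other control was 0.867 of the whole control range for HMGCS1 mRNA and 0.671 for ZNF367 mRNA, in both of which 20_2 was lowest. It was 0.706 for RPLP0 footprints, where 20_2 was highest, and 0.658 for the median mRNA level of zinc finger genes, where it was lowest. RPLP0 footprints nevertheless lay at 79.6 and 79.9 CPM in the RPL21 knockdown, below all 6 controls.

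The test of the difference between the RPL21 effect and the mean of the 15 other knockdowns passed for 3278 genes in mRNA, 3114 in footprints and 175 in footprints per mRNA, among them BTG2, MDM2 and RPLP0.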

How the results depend on the processing

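RPL21 was a single set of 2 alike libraries, so the number of calls depends on whether the spread within or between sets is used. With the libraries of a set summed the calls against control came to 1 in mRNA, 321 in footprints and 0 in footprints per mRNA, and without control 20_2 as well to 4, 285 and 0. Against the other knockdowns they came to 1, 0 and 0, and without 20_2 to 1, 0 and 0. edgeR's counts at an unadjusted p under 0.05 in the fits with 0 calls were 181 and 364 for footprints per mRNA against control, 915 and 834 for footprints and 135 and 235 for footprints per mRNA against the other knockdowns. Fits of the 8 libraries alone called 1120 genes in mRNA, 2687 in footprints and 0 in footprints per mRNA, where 599 had an unadjusted p under 0.05. All 11 controls gave 389 calls in footprints per mRNA. Against RPL15, RPL24 and RPL29 alone 1971, 2004 and 0 genes were called, the last with 543 at an unadjusted p under 0.05, and without the lysate block 112 in footprints per mRNA against the others. Leaving out each RPL21 or control library gave 2809 to 7211 calls in mRNA, 3002 to 5281 in footprints and 33 to 1419 in footprints per mRNA against control, the 1419 arising without control 20_2, and leaving out either RPL21 library gave 1177 to 1416, 1411 to 1489 and 41 to 45 against the other knockdowns, whose own libraries were not left out in turn. The causes were not tested beyond what these constructions show.

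DESeq2, RLE scaling, limma and other filters kept each total against control within 1.5 times. With the replicate number as a block, which needs controls 21_1 and 21_2 left out, 5969, 6420 and 355 genes were called against control and 4326, 4586 and 242 against the others. Deviations of same-numbered samples correlated between −0.51 and 0.36 in RNA-seq and between −0.316 and 0.313 in Ribo-seq. Deviations of the 2 RPL21 libraries from their own mean are mirror images, and those of controls hold differences between sets. The correlations thus cannot decide whether the replicate number marks a shared batch. Of 283 values of named genes, 42 stayed on their side of the threshold with the sets summed, 242 without RPL21_1 and 241 without RPL21_2. Footprints per mRNA of RPL21, at 1.73 (adjusted p 0.546), turned to −2.275 without RPL21_2, which leaves the library with 0 footprints, and was 2.088 without RPL21_1.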

Other observations

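Gene groups not described above had fewer calls or calls in both directions. The background for all counts of this section is the share over all genes. It was 16.1% higher and 17.6% lower in mRNA, and 19.3% and 20.5% in footprints. Of 25 immediate early and dual-specificity phosphatase genes 9 were called higher and 3 lower in mRNA, and 11 of 24 were higher and 1 lower in footprints. IER2 had 95.4 and 85.1 CPM in knockdown footprints and 24.7 to 41.2 CPM in controls, a log2 fold change of 1.40 (SE 0.15, adjusted p 1.12e-08), and JUN, a subunit of AP-1, had 112 and 103 CPM in knockdown mRNA and 50.1 to 72.2 CPM in controls. NR4A1, a nuclear receptor, was lower, with 13.5 and 14.9 CPM in knockdown footprints and 26.4 to 62.9 CPM in controls. Of 29 lysosome genes 9 were higher and 2 lower in mRNA, and without control 20_2 18 were higher. GLA, the lysosomal galactosidase, had 94.7 and 89.8 CPM in knockdown footprints and 238 to 349 CPM in controls (−1.62, SE 0.13, adjusted p 2.57e-11), while the protease CTSB had 875 and 840 CPM against 516 to 571 CPM.

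Among genes that deal with stalled ribosomes 5 of 25 were higher and 1 lower in mRNA, and 9 were higher and 6 lower in footprints. Without control 20_2 the mRNA counts were 10 higher and 5 lower, and without RPL21_1 3 were higher. ASCC3, the helicase that splits collided ribosomes, had 182 and 193 CPM in knockdown footprints and 67.8 to 112 CPM in controls (1.13, SE 0.15, adjusted p 3.5e-07), and its partner ASCC2 had 59.6 and 57.6 CPM against 28.2 to 32.7 CPM. ABCE1, which recycles ribosomes, fell by 1.01 in footprints. Of 39 initiation and elongation factors outside the TOP class 13 were higher and 7 lower in footprints. EIF1, a factor of start codon choice, had 1860 and 1830 CPM in knockdown footprints and 706 to 1020 CPM in controls, and its footprints per mRNA rose by 0.84 (SE 0.18, adjusted p 0.008). EIF4E, the cap-binding protein, rose by 1.12 in footprints per mRNA (SE 0.23, adjusted p 0.00787).

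Of NRF2 targets 3 of 26 were higher and 5 lower in mRNA, of NF-kB targets 3 of 18 and 2, of interferon response genes 2 of 22 and 2, of unfolded protein response genes 2 of 22 and 2, of fatty acid synthesis genes 2 of 14 and 5, of glycolysis genes 3 of 23 and 0, and of nuclear genes of oxidative phosphorylation 9 of 53 and 4. Most of these counts were near or under the shares over all genes, 16.1% higher and 17.6% lower. Of mitochondrial ribosomal proteins 5 of 53 were higher and 3 lower in mRNA, and 5 were higher and 17 lower in footprints, MRPL37 among them, with 72.9 and 69.1 CPM in the knockdown and 99.5 to 122 CPM in controls. Of the 13 protein genes of mitochondrial DNA 1 was lower in mRNA and 3 were higher in footprints, which became 1 without RPL21_1, 0 in edgeR's test without RPL21_2 and 6 without control 11_1. Their median footprints per mRNA was 0.77 and 0.85 in RPL21 lysates and ranged from −1.16 to 0.98 in control lysates, so the groups overlapped. Markers of blood cells summed to 56.7 to 61.7 CPM in knockdown mRNA and 29.7 to 43.7 CPM in controls, mostly CD68, with NKG7 and PTPRC at 0, and those of endothelium to 0.5 to 0.606 CPM and 0.121 to 0.532 CPM.

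Zinc finger genes named ZNF were looked at after their values were seen, so their counts are a description. In footprints 112 of 355 were higher and 13 lower, in mRNA 62 of 406 and 43, and in footprints per mRNA 19 of 353 were higher and 0 lower. The shares over all genes were 19.3% and 20.5% in footprints and 0.877% and 1.19% in footprints per mRNA. In mRNA they were 16.1% and 17.6%, and both zinc finger counts in mRNA were under them. Their median footprints per mRNA lay at 0.28 and 0.29 in RPL21 lysates, 0.45 in control lysate 20_2 and −0.20 to 0.12 in the other control lysates. Without control 20_2 the number called higher was 79, and without RPL21_1 or RPL21_2 it was 1 or 2. In mRNA the number lower was 83 without control 20_2 and 15 or 21 without RPL21_1 or RPL21_2, and the number higher 30 or 29. In footprints 62 were higher without RPL21_2, and 5 or 7 lower without RPL21_1 or RPL21_2.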
